A study of Mus musculus with 2 samples.

Results

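The genes described here are the detected solute carrier (SLC) transporters of the mouse dorsolateral prostate, compared between wild-type mice and mice that express the microRNA miR-32. They were chosen by 2 criteria. The RefSeq accession of the probe had to belong to a gene whose symbol starts with Slc and a number, and the Cy3 signal had to be well above background on both arrays for most spots of the probe. The zinc transporter families Slc30 and Slc39 and the cystine transporter Slc7a11 were left out, and each gene took its brightest detected probe. This gave 198 members of 332 SLC genes with a named probe, within 12354 genes detected by the same criteria. Cy3 carried the transgenic pool on array 1 and the wild-type pool on array 2, so the choice used the brightness of each pool and not the ratio between them.

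All mice were of the FVB/N strain and 6 months old. The transgene placed miR-32 behind the androgen-responsive ARR2PB promoter, which derives from probasin and drives expression in the epithelium of the prostate, and the wild-type mice carried no transgene. RNA of 6 mice was pooled for each genotype, and both pools were hybridised together on 2 arrays with the dyes exchanged. The arrays thus repeat the measurement of the same 1 pool per genotype. The genotypes could not be tested against each other, no p-value is given, and each ± is the SD over the 2 arrays.

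Solute carriers move nutrients, metabolites, ions and cofactors across the plasma membrane and the membranes of organelles, by facilitated diffusion, exchange or coupling to ion gradients. The mitochondrial carriers of family Slc25 form a branch of their own in the inner mitochondrial membrane. Prostate epithelium is known for secreting a citrate-rich fluid, and the mitochondrial citrate carrier, the aspartate-glutamate carriers and ion cotransporters have been discussed in that setting.

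The transgene product is shown for its seed, which is the part of a microRNA that pairs with target transcripts. The RefSeq mature sequence of the mouse microRNA lies at chr4:56895272-56895293 on the minus strand of GRCm38.p6, within the gene Tmem245. Capitals mark the seed, bases 2 to 8.
mmu-miR-32-5p: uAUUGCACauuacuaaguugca

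Few solute carriers differed between the pools by the size used here, a ratio that reached 1.5-fold on both arrays with one direction. One gene, Slc16a7, was higher in the transgenic pool, and 2 genes, Slc12a2 and Slc35f5, were lower. The 3 genes make up 1.52% of the members, against 1.86% of all 12354 detected genes. Higher genes were 0.785% and lower genes 1.08% of all detected genes. At 2-fold on each array Slc12a2 was the only member left, where 0.494% of all detected genes passed. The split of higher to lower members differed between ways of processing. It was 1 to 2 here and 0 to 8 with median centring in place of loess. It was 5 to 11 with the scanner software's ratios, which also change the background subtraction, and 2 to 1 in the authors' deposited table, which gives 99 SLC genes and not Slc35f5.

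Slc16a7 encodes MCT2, a high-affinity proton-coupled transporter of pyruvate and lactate. Its normalized intensity was 338 and 432 in the wild-type pool on arrays 1 and 2, and 657 and 1345 in the transgenic pool. Both transgenic values lay above both wild-type values. The log2 ratio of transgenic over wild type was 0.96 and 1.64, with a mean of 1.30 ± 0.48, or 2.46-fold. The direction was positive in all 12 alternative analyses, several of which could not change it, but the size of the difference varied. The scanner software gave 0.68 and 3.56, with a mean of 2.12, and median centring gave 0.93 and 0.01, with a mean of 0.47 that no longer reached 1.5-fold on both arrays.

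Slc12a2 encodes NKCC1, the sodium-potassium-chloride cotransporter that loads secretory epithelia with chloride. Intensities were 966 and 709 in the wild-type pool and 402 and 336 in the transgenic pool. The pools did not overlap, and the lower value was in the transgenic pool on each array. The log2 ratios were −1.27 and −1.08, with a mean of −1.17 ± 0.13, or 2.25-fold lower. This gene reached the size in 12 of 12 alternatives, several of which could not change its values. The scanner software gave −1.24 and −1.37.

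Slc35f5 belongs to the nucleotide-sugar transporter family, although its substrate is not established. Intensities were 784 and 464 in the wild-type pool and 464 and 173 in the transgenic pool. The highest transgenic value did not exceed the lowest wild-type value. The log2 ratios were −0.76 and −1.43, with a mean of −1.09 ± 0.47. The transgenic pool carried Cy5 on array 2, and there the signal of this probe was not well above background, so the ratio on that array is less certain. The scanner software gave −0.59 and −2.96.

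**Figure D1:**
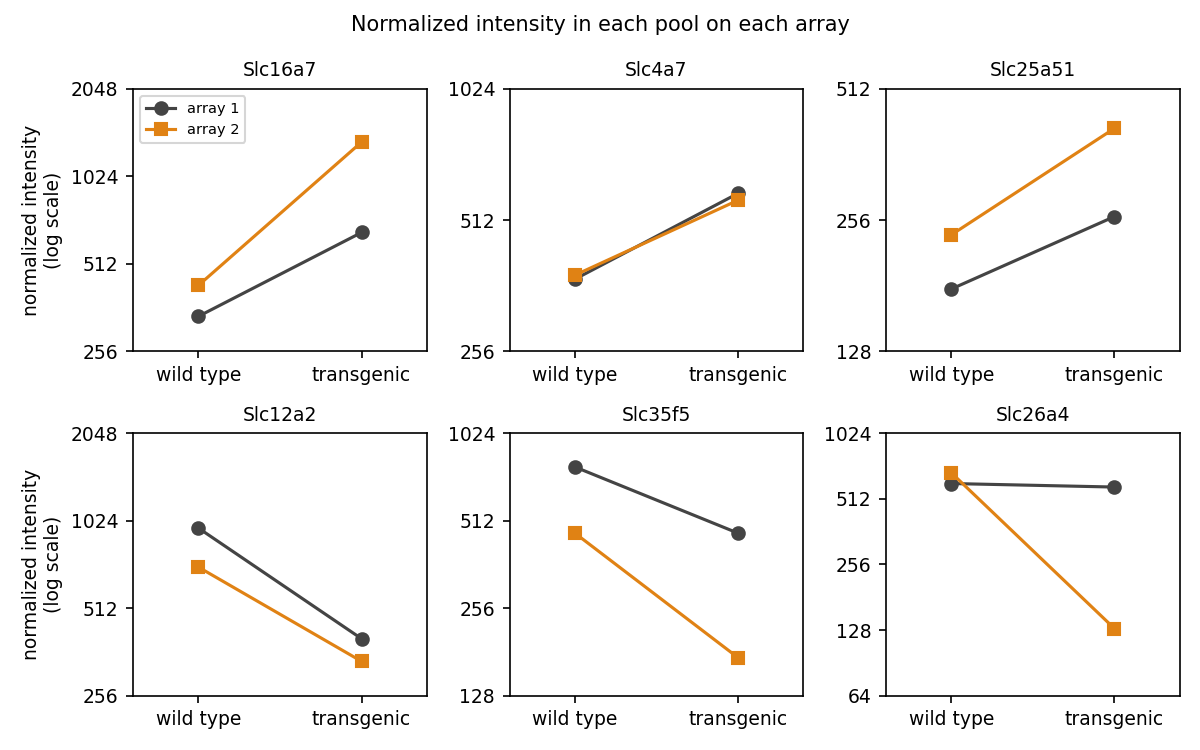
Normalized intensity (log scale) of 6 solute carriers in the wild-type and the transgenic pool, with circles for array 1 and squares for array 2. Slc16a7 and Slc12a2 differ in the same direction on both arrays, whereas Slc26a4 differs on array 2 alone, where its log2 ratio was −2.38.

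The Slc35f5 promoter is shown because the gene is the lower member whose promoter is in the RefSeq table used here. The window runs from 250 bases before to 50 bases after the annotated start, at chr1:125560345-125560644 on the plus strand of GRCm38.p6, and is the first of 2 windows listed for the gene. Capitals mark matches on either strand to GGGCGG, the GC box, and TGTTCT, an androgen response half-site.
Slc35f5: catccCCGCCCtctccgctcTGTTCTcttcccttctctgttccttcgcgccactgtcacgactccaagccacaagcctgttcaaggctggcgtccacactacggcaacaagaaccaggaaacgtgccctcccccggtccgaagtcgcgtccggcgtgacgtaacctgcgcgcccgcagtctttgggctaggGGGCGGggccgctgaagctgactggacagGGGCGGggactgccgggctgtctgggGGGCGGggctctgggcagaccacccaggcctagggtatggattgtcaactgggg
The window held 4 GC boxes and 1 half-site, with no CCAAT. Over the 197 promoters of 149 members in the table, 67.0% held a GC box, 33.5% a CCAAT and 11.7% a half-site. The shares over the 12586 promoters of detected genes were 60.6%, 37.2% and 12.9%, and over all 32851 promoters 35.7%, 37.4% and 19%. A match describes these letters only.

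Markers of other cell types differed between the same pools. Of 13 detected adipocyte markers 6 were lower in the transgenic pool, among them Adipoq and Fabp4, with a median log2 ratio of −0.89. Their summed intensity was 11330 and 11944 in the wild-type pool and 5281 and 4068 in the transgenic pool, and Lep was not detected. Of 14 detected myeloid markers 3 were lower, with a median of −0.53 and sums of 3890 and 5629 against 2129 and 2651. All 13 luminal epithelial markers were detected, with sums of 63643 and 49099 against 62811 and 48577, and Hoxb13 was lower. The part of other cell types in the ratios of solute carriers was not tested. In such tissue RNA, fewer cells of a type and less RNA per cell cannot be told apart.

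Over all members the arrays gave different values for the same pair of pools. The sign of the ratio was the same on both arrays for 91 members, or 46%, against 45.5% of all detected genes. Ratios of 150 members, or 75.8%, stayed within 1.5-fold on each array, against 75.0% of all genes. The pools did not overlap in intensity for 64 members, or 32.3%, against 31.8% of all genes. Taken by itself, array 1 put 19 members past 1.5-fold and array 2 put 35, where 11.8% and 17.7% of all detected genes passed. Across members the correlation of the arrays was r = −0.02 (Spearman's rho −0.12), as a description over 198 genes of the same pair of pools. Over all detected genes it was also r = −0.02. With the scanner software's ratios it was r = 0.26 across members and 0.21 over all detected genes, so the correlation depends on the processing.

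The median log2 ratio of the members was −0.04, with quartiles of −0.20 and 0.10, and that of all detected genes was −0.05. Without regard to sign, the median ratio was 0.15 for members and 0.16 for all genes. The median SD over the arrays was 0.27 for members and 0.26 for all genes. The Cy5 signal was well above background for 170 members on array 1 and for 98 on array 2, so for the rest a ratio rests in part on a dim signal. For such members the background offset also narrows the SD, so a small SD should not be read as precision. For 3 members the ratio followed the dye rather than the pool by at least 1.5-fold, or 1.52% against 2.61% of all genes. These were Slc38a10, Slc31a1 (the copper importer CTR1) and Slc16a6, and each was brighter in Cy3 on both arrays. The scanner software gave 0.35 and 0.16 for Slc38a10, 0.28 and 0.03 for Slc31a1, and 0.94 and −1.57 for Slc16a6. By those ratios Slc16a6 alone of the 3 followed the dye, and its Cy5 signal on array 2 was not well above background.

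**Figure D2:**
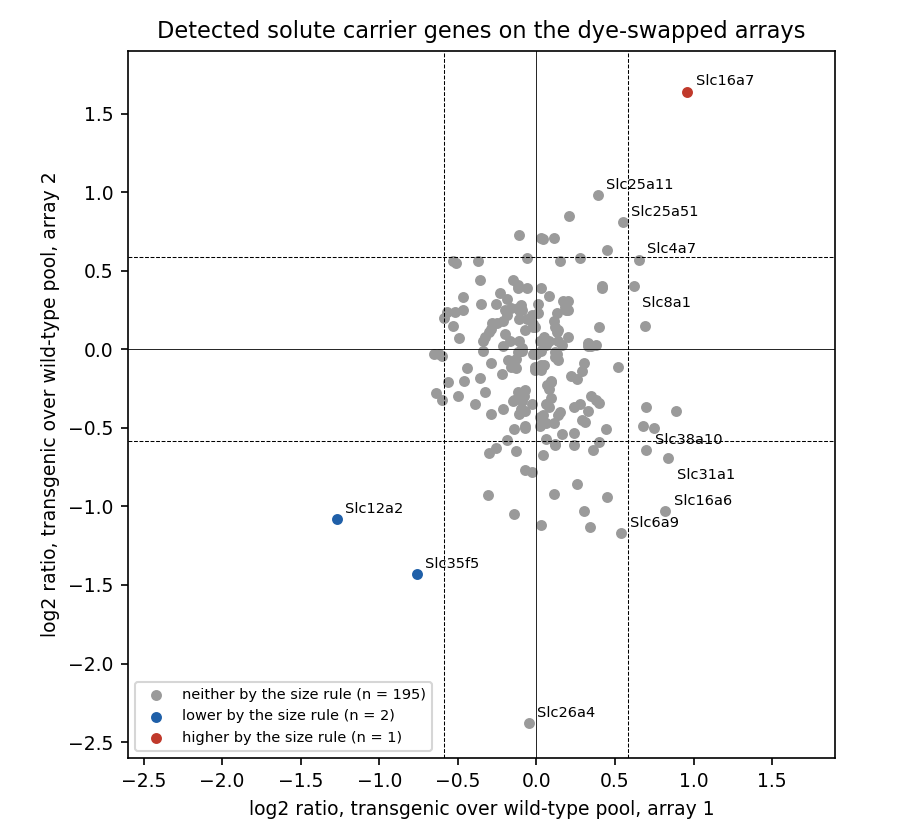
Log2 ratio of the transgenic over the wild-type pool on array 1 (horizontal) and array 2 (vertical) for the 198 detected solute carriers, with dashed lines at 1.5-fold. The 3 coloured genes lie past both lines in one direction. With the processing used here the others form a cloud with no slope (r = −0.02 over all 198).

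Inorganic ion carriers numbered 31 of 59 on the array, with 1 lower, 0 higher and a median of 0.03. Slc26a4, or pendrin, an exchanger of chloride, iodide and bicarbonate, had the lowest mean of all members, −1.22 ± 1.64. Intensities were 602 and 674 in the wild-type pool and 580 and 130 in the transgenic pool. The difference came from array 2, with a log2 ratio of −0.05 on array 1 and −2.38 on array 2, and the Cy5 signal of the transgenic pool was not well above background on array 2.

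Slc4a7, the electroneutral sodium-bicarbonate cotransporter NBCn1, came close to the size of 1.5-fold. Intensities were 375 and 383 in the wild-type pool and 590 and 569 in the transgenic pool, with no overlap. The mean log2 ratio was 0.61 ± 0.06, but its other 2 detected probes gave means of 0.01 and 0.33, and median centring gave −0.14. Slc8a1, the sodium-calcium exchanger NCX1, was at 85.2 and 85.7 in the wild-type pool and at 131 and 113 in the transgenic pool, where Cy5 on array 2 was not well above background. Its ratio was 0.51 ± 0.15, its 3 probes all had means above 0, and the scanner software gave 1.29 and 1.83.

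The potassium-chloride cotransporters Slc12a7 and Slc12a4, of the same family as Slc12a2, had means of −0.33 ± 0.18 and 0.05 ± 0.12 and stayed inside the size. The phosphate importers Slc20a1 and Slc20a2 stood at 0.21 ± 0.26 and −0.35 ± 0.08, and the anion exchanger Slc4a2 at −0.19 ± 0.56. For Slc20a2 the Cy5 signal on array 2 was not well above background, and the scanner software gave −0.72 and −1.69. The chloride and bicarbonate exchanger Slc26a3 was at 0.24 ± 0.10, with no overlap of the pools.

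**Figure D3:**
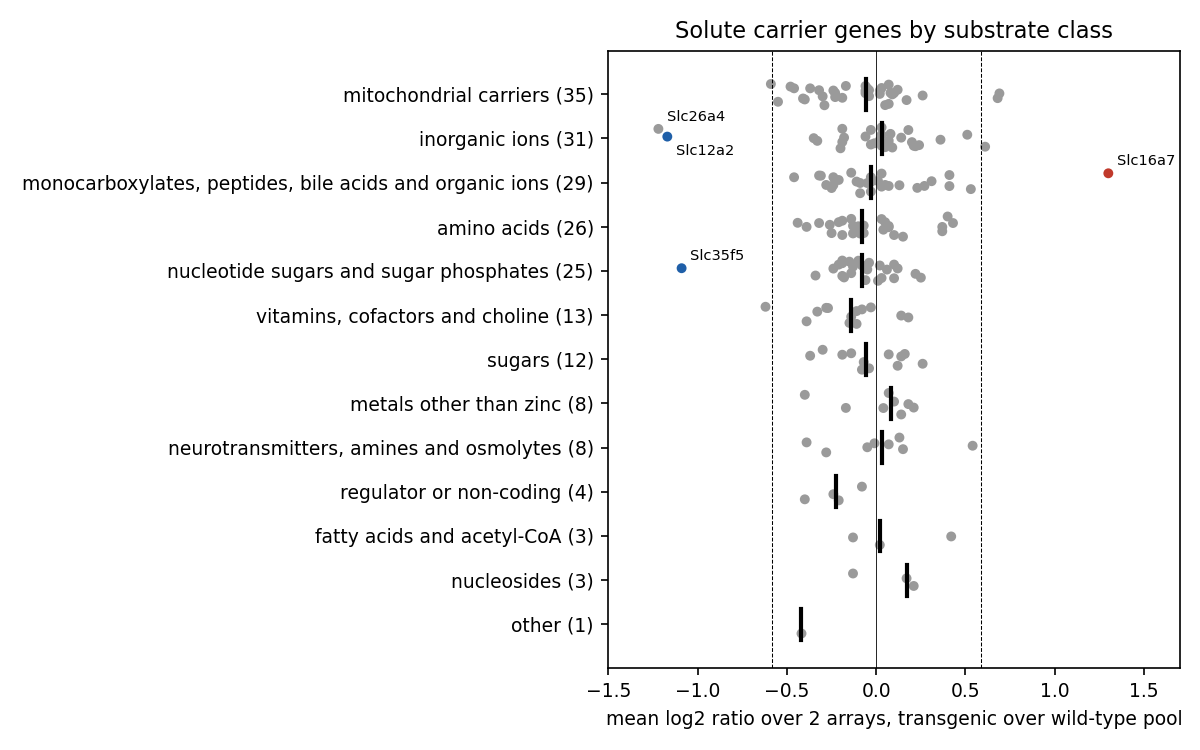
Mean log2 ratio over the 2 arrays of each detected solute carrier by substrate class, with the number of members in brackets. Black bars are class medians, dashed lines mark 1.5-fold, and coloured points passed 1.5-fold on each array. Apart from the single gene in the class other, the medians lie between −0.23 and 0.17, near the −0.05 of all genes.

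Mitochondrial carriers were the largest class, with 35 of 45 detected. None reached the size in either direction, and the median was −0.06. Both ratios were below 0 for 11 carriers, or 31.4%, against 26.7% of all detected genes. Both were above 0 for 6 carriers, and for 2333 of all 12354 genes. Slc25a1, the citrate carrier, had intensities of 950 and 1448 in the wild-type pool and 727 and 1136 in the transgenic pool. It was lower in the transgenic pool on each array, by a mean log2 ratio of −0.37 ± 0.03, although the pools overlapped, since each was brighter on array 2.

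The ADP/ATP carriers Slc25a4 and Slc25a5 stood at 0.10 ± 0.09 and 0.02 ± 0.46. A second probe of Slc25a4 gave a mean of −0.29. The aspartate-glutamate carriers Slc25a12 and Slc25a13 had means of 0.05 ± 0.02 and 0.07 ± 0.42, and the dicarboxylate carrier Slc25a10 of 0.07 ± 0.11. The ratio of the phosphate carrier Slc25a3 was 0.03 on array 1 and −1.12 on array 2, so its mean of −0.55 rests on array 2. The scanner software gave −0.36 and −0.49 for Slc25a3, so this split between the arrays depends on the processing.

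The highest 2 mitochondrial carriers were Slc25a11, the 2-oxoglutarate/malate carrier, and Slc25a51, the NAD+ carrier. Intensities of Slc25a51 were 178 and 237 in the wild-type pool and 261 and 416 in the transgenic pool, with no overlap. Its log2 ratios were 0.55 and 0.81, just short of the size on array 1, and it passed in 4 of 12 alternatives. Slc25a11 had ratios of 0.39 and 0.98, and the scanner software gave 0.04 and 2.62. The lowest mean of the class was that of Slc25a35, −0.59 ± 0.64, from ratios of −0.14 and −1.05. Slc25a16 was at −0.48 ± 0.25, the mitochondrial glycine carrier Slc25a38 at −0.46 ± 0.26 and the glutamate carrier Slc25a22 at −0.40 ± 0.15, each with both ratios below 0. The carnitine-acylcarnitine carrier Slc25a20 was at −0.30 ± 0.05, and the scanner software gave −0.55 and −1.8 for it. The Cy5 signal on array 2 was not well above background for Slc25a35, Slc25a16, Slc25a22 and Slc25a20.

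Slc25a39, a carrier needed for mitochondrial glutathione, gave different answers by probe. The brightest probe had ratios of 0.44 and −0.51, and the second had −0.89 and −0.74, which alone would reach the size in the lower direction. Probes that target the same gene disagreed elsewhere too. Of 57 members with more than 1 detected probe, 26 had mean ratios of opposite sign, and the correlation between the brightest and the next probe was 0.18 across those 57 genes.

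**Figure D4:**
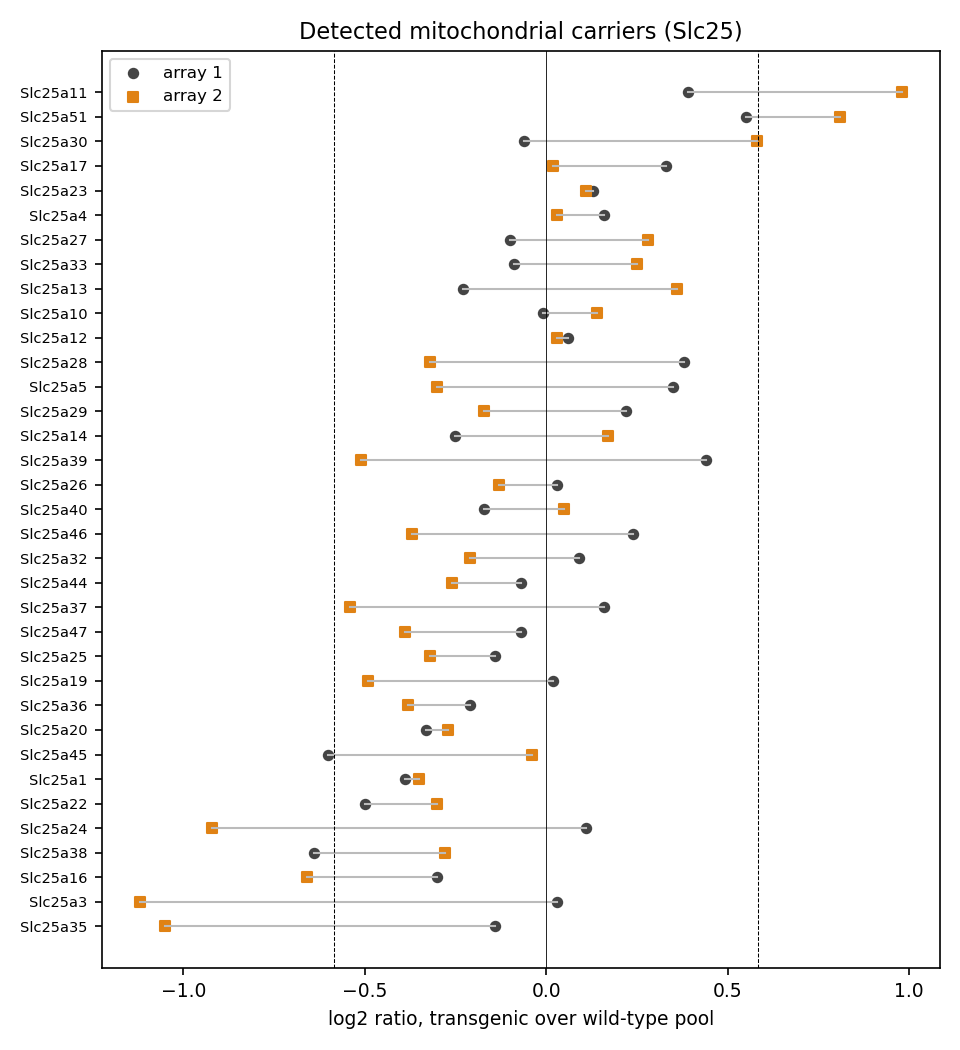
Log2 ratio of transgenic over wild type for the 35 detected mitochondrial carriers, in order of the mean, with circles for array 1, squares for array 2 and dashed lines at 1.5-fold. No carrier has both marks past the same dashed line.

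The class of monocarboxylate, peptide, bile acid and organic ion carriers had 29 of 61 genes detected, with 1 higher, 0 lower and a median of −0.03. Slc16a7 was the member that reached the size. Among other lactate and pyruvate carriers of the family, MCT1 (Slc16a1) was at 0.13 ± 0.01 and MCT4 (Slc16a3) at −0.03 ± 0.01. For both, the Cy5 signal on array 2 was not well above background. The scanner software gave 0.22 and −0.52 for Slc16a1 and 0.25 and −0.62 for Slc16a3, so the small SDs depend on the processing. No test of a difference between family members was possible.

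Slc22a12, the urate transporter URAT1, had intensities of 640 and 851 in the wild-type pool and 855 and 1123 in the transgenic pool. The lowest transgenic value was just above the highest wild-type value, and the ratio was 0.41 ± 0.01. With median centring the ratios of Slc22a12 were 0.38 and −1.29. The urea transporter Slc14a2 was at 0.53 ± 0.45, and its second probe at 0.04. Slc22a23, an organic ion carrier whose substrate is not established, was at 0.41 ± 0.43. Slc15a2, the peptide transporter PEPT2, had intensities of 247 and 171 in the wild-type pool and 163 and 137 in the transgenic pool. Its ratio was −0.46 ± 0.20. The Cy5 signal of Slc15a2 on array 2 was not well above background, and the scanner software gave −0.53 and −1.7.

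Amino acid carriers had 26 of 50 genes detected, with 0 higher, 0 lower and a median of −0.08. The heavy chain Slc3a2 and its partner LAT1 (Slc7a5), which together exchange large neutral amino acids, had ratios of 0.05 ± 0.10 and 0.10 ± 0.06. The glutamine transporter ASCT2 (Slc1a5) was at −0.25 ± 0.52. Intensities of SNAT2 (Slc38a2), a sodium-coupled transporter of neutral amino acids, were 443 and 330 in the wild-type pool and 591 and 432 in the transgenic pool. It was brighter in the transgenic pool on each array, by 0.40 ± 0.02, yet its second probe gave −0.30. With median centring its ratios were 0.39 and −0.99.

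The neutral amino acid transporter Slc6a17 had ratios of 0.28 and 0.58, and passed the size in the scanner software's ratios with 0.69 and 1.38. LAT3 (Slc43a1) was at 0.15 ± 0.19 and the lysosomal arginine sensor Slc38a9 at −0.13 ± 0.01. For both, the Cy5 signal on array 2 was not well above background, and the scanner software gave −0.05 and −1.57 for Slc38a9. The lowest mean of the class was that of the purine nucleobase transporter Slc43a3, placed here by its family, −0.44 ± 0.26. For the glycine transporter Slc6a9 the arrays opposed each other, with 0.54 and −1.17. The glutamate transporter Slc1a1 was on the array but was not detected.

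Among nucleotide-sugar and sugar phosphate carriers 25 of 29 were detected, with 0 higher, 1 lower and a median of −0.08. Of these, 6 had the same sign on both arrays, or 24%, against 45.5% of all detected genes. Golgi carriers with known substrates stayed inside the size, with the CMP-sialic acid carrier Slc35a1 at −0.13 ± 0.03, the UDP-galactose carrier Slc35a2 at −0.34 ± 0.44, the UDP-N-acetylglucosamine carrier Slc35a3 at −0.04 ± 0.07 and the GDP-fucose carrier Slc35c1 at 0.03 ± 0.53. The glucose-6-phosphate carrier of the endoplasmic reticulum, Slc37a4, was at −0.06 ± 0.32. For Slc35a1 and Slc35a2 the Cy5 signal on array 2 was not well above background. The scanner software gave −0.16 and −0.74 for Slc35a1.

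Sugar carriers had 12 of 23 genes detected, with 0 higher, 0 lower and a median of −0.05. GLUT1 (Slc2a1) had ratios of −0.52 and 0.24. GLUT4 (Slc2a4), the insulin-responsive glucose transporter of fat and muscle, was at −0.08 ± 0.21, beside the lower adipocyte markers given above. Its probe was printed 10 times per array, and the SD of those spots was 0.38 on array 1 and 0.28 on array 2. Slc45a3, or prostein, known for its expression in human prostate, was at −0.04 ± 0.44, and the myo-inositol transporter Slc5a3 at 0.26 ± 0.07.

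Vitamin, cofactor and choline carriers had 13 of 20 genes detected, with 0 higher and 0 lower. Their median of −0.14 was below that of all genes, and 11 of the 13 means were below 0, as were 57.6% of the means of all detected genes. Slc46a3, a lysosomal transporter, had intensities of 582 and 624 in the wild-type pool and 469 and 327 in the transgenic pool. The pools did not overlap, and the ratio was −0.62 ± 0.44, but the scanner software gave −0.91 and 0.05. The reduced folate carrier Slc19a1 was at −0.39 ± 0.37, the thiamine transporter Slc19a2 at −0.28 ± 0.30 and the choline transporter Slc44a1 at −0.33 ± 0.26. For Slc19a1, Slc19a2 and Slc44a1 the Cy5 signal on array 2 was not well above background.

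Carriers of metals other than zinc were all detected, 8 of 8, with 0 higher, 0 lower and a median of 0.08. The iron exporter ferroportin (Slc40a1) was at 0.21 ± 0.25 and the iron importer DMT1 (Slc11a2) at 0.14 ± 0.36. The magnesium transporter Slc41a1 had the lowest mean of the class, −0.40 ± 0.52. Slc11a1, the NRAMP1 metal transporter of macrophages, was at 86.2 and 103 in the wild-type pool and 87.5 and 107 in the transgenic pool. Its ratio was 0.04 ± 0.02 here and −0.89 and −1.24 by the scanner software, so its direction differed between these ways of processing. Myeloid markers were lower in the transgenic pool, as given above.

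Neurotransmitter, amine and osmolyte carriers had 8 of 18 genes detected, with 0 higher, 0 lower and a median of 0.03. The sign was the same on both arrays for 7 of the 8, or 87.5%, against 45.5% of all detected genes. Slc18a1, the vesicular monoamine transporter VMAT1, had intensities of 616 and 556 in the wild-type pool and 839 and 862 in the transgenic pool. The pools did not overlap, and the ratio was 0.54 ± 0.13. Median centring gave 0.41 and −0.98, and moved the median of all genes to −0.46. The serotonin transporter Slc6a4 was at −0.28 ± 0.29, the creatine transporter Slc6a8 at −0.01 ± 0.28 and the taurine transporter Slc6a6 at 0.07 ± 0.02.

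Fatty acid and acetyl-CoA carriers had 3 of 7 genes detected and nucleoside carriers 3 of 6, with 0 higher and 0 lower in both. The fatty acid transporter Slc27a1 had opposed ratios of −0.51 and 0.55, and the acetyl-CoA transporter Slc33a1 had 0.69 and 0.15. The nucleoside transporters ENT1 (Slc29a1) and CNT3 (Slc28a3) were at −0.13 ± 0.08 and 0.21 ± 0.18. Of 4 genes that carry an Slc symbol but encode regulators or neighbours of carriers, none reached the size, and the scaffold Slc9a3r1 (NHERF1) was at −0.21 ± 0.40. The single gene in the class other, Slc66a2, was at −0.42 ± 0.50.

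The 134 SLC genes that were not detected include Slc26a2, a sulfate transporter. No gene of the families Slc13, Slc23, Slc32, Slc47 or Slc51 was detected. At the edge of detection, the dimmest members were Slc7a15, with background-subtracted Cy3 signals of 10.7 and 12.5 on arrays 1 and 2, and Slc25a45, with 10.2 and 35.1. Just outside lay Slc27a5, with 21.9 and 11.8, and Slc6a7, with 17.9 and 10.4. These ranges overlap, as the flag also weighs the background around each spot.

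**Figure D5:**
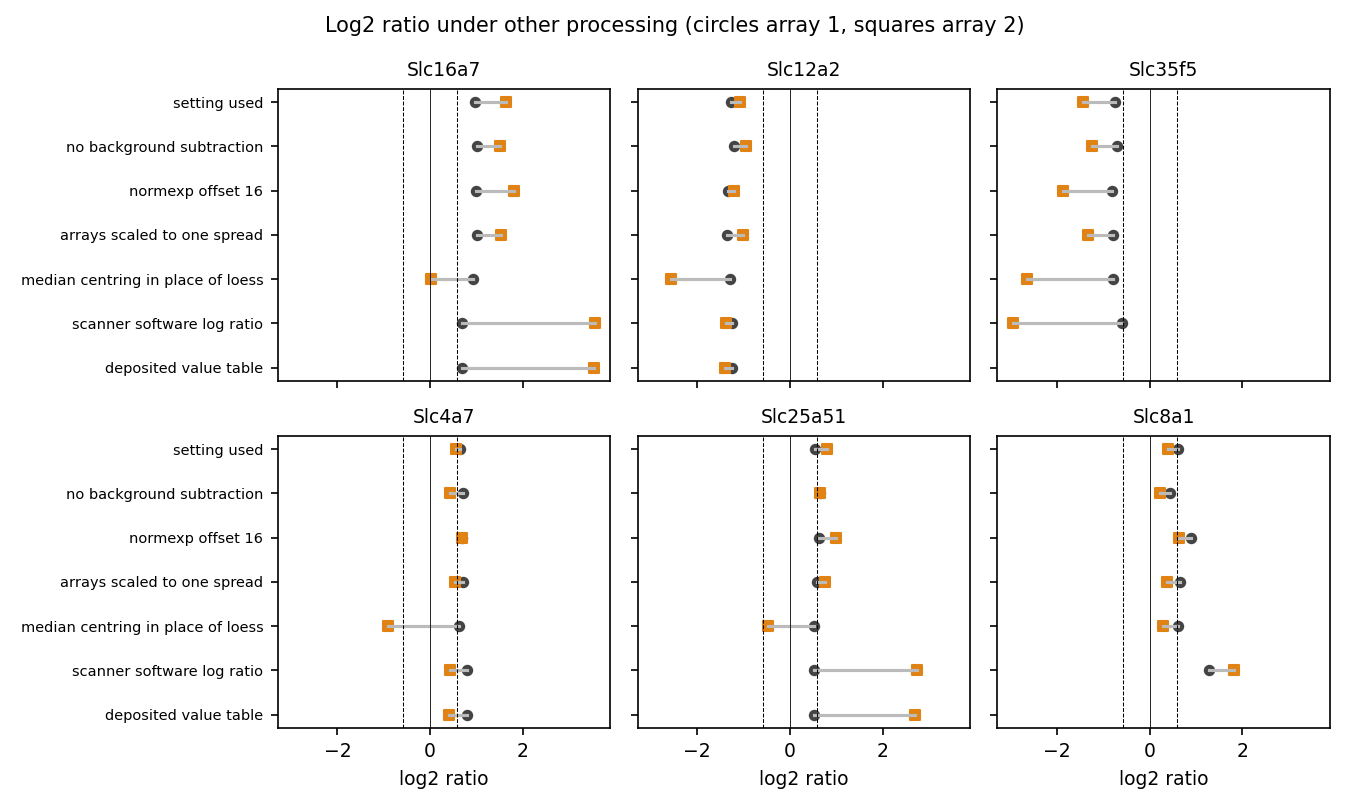
Log2 ratio on array 1 (circles) and array 2 (squares) for 6 solute carriers under 7 ways of processing, with dashed lines at 1.5-fold. Slc12a2 stays past the line in each, whereas Slc16a7 drops inside it on array 2 with median centring and Slc4a7 changes sign there.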

How the data were processed

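Per the labels, 100 ng of total RNA was labelled for 2-colour Agilent arrays. The deposited spot and local background intensities are medians over pixels, per dye. The file headers name Feature Extraction 11.0.1.1. The log ratio in these files is log10 of Cy5 over Cy3 after the scanner software's background subtraction and dye normalization, per the file headers. The authors' deposited table of 8533 rows is in log2 units and matched that ratio turned to transgenic over wild type (on either array, r and slope were 1). Its column medians were 0. The sources used here do not say how its probes were chosen. The flags for spots well above background, also deposited, chose the members.

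Ratios were turned to transgenic over wild type from the dyes in the labels. With limma 3.58.1 in R 4.3.3, background was corrected by normexp (offset 50) on median signals, and loess was fitted within each array, giving control and outlier spots no weight. The offset pulls ratios of dim probes towards 0, which also narrows their SD over the arrays. Intensities of each pool came from loess and Aquantile normalization, and are not compared between probes. Each array held 43379 non-control spots, 157 and 177 of them outliers that were left out, and none saturated. On array 1, 58.3% of spots were well above background in Cy3 and 42.1% in Cy5, and on array 2 57% and 21.1%. The number of arrays limits the precision.

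Accessions were matched to a RefSeq table of GRCm38.p6, which named 27816 of 41174 probes. The headers cite another build, so no coordinates are given besides those of the microRNA and the promoter window, both in GRCm38.p6. Members, classes and lists were chosen with earlier results of these data known, and the classes of Slc4a1ap, Slc18b1 and the Slc6a20 genes were set after the list of members was seen. Genes named are those past the size, up to 4 per class with the largest ratios of one sign, up to 2 nearest 0, those whose probes disagree, and genes of prior interest. Others were chosen after their values were seen. Not every gene that this rule allows is printed, and the values of some members are not reported here. Alternatives changed the background correction, normalization, filter, probe choice and size, and left out each array. Simulated data were used to test the script for the size rule. Figures used matplotlib 3.10.9, and tables numpy 2.4.6 and pandas 2.3.3, under Python 3.11.15.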

Additional observations from a re-analysis of the deposited data

How the results depend on the processing

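Slc12a2 kept its direction and size in all 12 alternatives, and Slc16a7 its direction in 12 and its size in 10. Slc35f5 kept its direction in 10 and its size in 9 of the 10 that gave it a value. Several alternatives could not change a call. Changing the filter or averaging probes left the values of Slc12a2 and Slc16a7 as they were. A single array had to pass at 1.5-fold where both arrays did, and the deposited table repeated the scanner software's ratios. The count of higher members was 2 without background subtraction, 4 with a normexp offset of 16, 0 with median centring, 5 with the scanner software's ratios, 2 in the authors' deposited table (99 genes, each by its brightest probe listed there), 2 with both arrays scaled to one spread and 0 at 2-fold. The count of lower members was 8 with median centring, 11 with the scanner software's ratios, 1 in the deposited table, 1 with both dyes well above background on both arrays (99 genes) and 1 at 2-fold. The share of all detected genes past the size was 3.27% with offset 16, 4.47% with median centring, 8.25% by the scanner software, 4.85% in the deposited table, 1.23% with no filter on dim probes and 0.494% at 2-fold. Median centring moved the median of all genes to −0.46 and that of the members to −0.44, and the scanner software's ratios put the members at −0.11. From 1 array alone, 9 to 11 members were higher and 8 to 26 lower, 11.8% to 17.7% of all genes passed, and the members' median was −0.04 to 0.01. The cause of these shifts was not tested. Besides the 3 genes, 21 members passed in at least 1 of the 9 other settings at 1.5-fold on both arrays. Among them were Slc8a1, Slc25a51 and Slc4a7. The share of all detected genes that did so was not counted, so the 21 members cannot be set against it. The weak Cy5 signal of array 2, well above background for 98 of 198 members, limits the ratios of dim probes. No paired analysis was possible because each genotype was 1 pool.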
